A study of Mus musculus with 50 samples.

Results

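The genes described here are 40 interferon-stimulated genes of the mouse, chosen by name as a module: Irf7, Irf9, Stat2, Rtp4, Ifit1, Ifit2, Ifit3, Isg15, Isg20, Mx1, Mx2, Oas1a, Oas2, Oas3, Oasl1, Oasl2, Rsad2, Usp18, Ifi27l2a, Ifi35, Ifi44, Ifih1, Ddx58, Ddx60, Dhx58, Bst2, Xaf1, Parp9, Parp12, Parp14, Trim25, Lgals3bp, Zbp1, Cmpk2, Herc6, Eif2ak2, Ly6e, Tap1, Psmb8 and Psmb9. All 40 were found as rows among the 33924 gene symbols of both count tables, and 39 had counts. Psmb9, which encodes an immunoproteasome subunit, had 0 counts in each of the 50 libraries and is not described further. RNA was sequenced from blood-forming cells of mice that carry a Flt3 mutation, alone or together with an Npm1 or a Dnmt3a mutation, and from WT mice.

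Flt3 is a growth factor receptor with kinase activity on early progenitors, Npm1 a nucleolar protein and Dnmt3a a DNA methyltransferase, and each is often mutated in acute myeloid leukaemia. Flt3 mice gave LSK cells (lineage-negative, Sca1+, Kit+ cells, the compartment of stem and multipotent cells) and GMP cells (granulocyte-monocyte progenitors) at 2, 4, 6 and 8 weeks, with 3 libraries per cell type and time. Npm1 Flt3 mice gave 4 LSK and 4 GMP libraries, Dnmt3a Flt3 mice 3 of each and WT mice, at 4 weeks, 3 of each. Lineage-negative progenitors (Lin- HSPCs) of Npm1 Flt3 mice were taken after 7 days of tamoxifen (TAM), which here activates a Cre recombinase that deletes the mutant Flt3 allele, or of vehicle, with 3 libraries each. The labels say that the mutations were activated with Cre, Dre or Flp recombinase, but not which recombinase or driver served which group, nor from which event the weeks were counted, nor the age or sex of the mice. In the libraries used, the sample codes of sorted groups give separate numbers within a group, taken as separate animals. The p-values measure the spread between these samples alone. The sample codes of WT and of Flt3 libraries have different prefixes, as do those of sorted Npm1 Flt3 and Dnmt3a Flt3 libraries. No prefix holds both genotypes of a comparison, so prefix and genotype cannot be told apart. What the prefixes stand for is not given in the labels. WT mice were sampled at 4 weeks alone, and no WT mice, and no mice without the removable Flt3 allele, received TAM, so the drug and the removal cannot be told apart.

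Interferons bind receptors whose kinases, Jak1, Jak2 and Tyk2, phosphorylate STAT factors such as Stat2. Type I interferon brings Stat2 and Irf9 into a complex that binds the interferon-stimulated response element (ISRE) in front of genes such as Isg15 and the Ifit, Oas and Mx families, while interferon-gamma acts on other elements and drives guanylate-binding proteins and MHC genes. The induced proteins sense and degrade foreign RNA, block viral entry and release, and feed peptides to MHC class I; in blood-forming tissue interferon is known to push quiescent stem cells into division and to raise Sca1, the product of Ly6a, on progenitors.

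Total counts lay between 306571 and 8249135 per library in the WT and Flt3 table and between 15053592 and 128057407 in the table of Npm1 Flt3 and Dnmt3a Flt3 mice, so levels were not compared across the tables. The GMP library of Flt3 mice at 8 weeks numbered 2 held 1942 counts over 988 genes and was left out of the fits and group means, which leaves 2 libraries in that group. For Dnmt3a Flt3 mice, the title and the code of LSK replicate 1 and of GMP replicate 2 name different cell types, and leaving both out leaves 2 libraries for each Dnmt3a Flt3 cell type. Their summed GMP markers went with the titles: the LSK library had 3269 CPM, against 3306 and 4037 CPM in the other two LSK libraries, and the GMP library had 48907 CPM, against 59656 and 61750 CPM in the other two GMP libraries. By the titles, however, both libraries share the code number of another library of their group. The sorts were checked with fixed marker lists: the 7 LSK markers and the 6 GMP markers tested all differed in the labelled direction between WT LSK and WT GMP. The GMP markers did so as well in Flt3 mice at 4 weeks and in Npm1 Flt3 mice, but 2 of the 7 LSK markers were called higher in LSK in Flt3 mice at 4 weeks and 4 of 7 in Npm1 Flt3 mice. Summed LSK markers were 672 to 939 CPM in Flt3 LSK at 2 weeks, which overlaps the 737 to 924 CPM of Flt3 GMP at 4 to 8 weeks. The summed GMP markers (Mpo, Elane, Prtn3, Ctsg, Ms4a3 and Fcgr3) made up 14953 to 61750 CPM (counts scaled to a library total of 1000000) in GMP libraries of sorted groups and 1611 to 5350 CPM in LSK libraries. Several libraries also held RNA of marker genes of other cell types, and those values stand beside the results below. In such bulk RNA, fewer cells of a type and less RNA per cell cannot be told apart. Flt3 itself had 121, 183 and 83.3 CPM after TAM, against 209, 181 and 160 CPM after vehicle, and these ranges overlapped. Its change after TAM was -1.68 ± 0.39 on the log2 scale with TMM scaling (edgeR adjusted p = 0.00126) and -0.50 ± 0.25 with library totals alone (edgeR adjusted p = 0.109), where it was not called; a gene count does not tell the mutant from the normal allele.

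The ISRE core was searched in the 250 bases before the start site of each gene, on both strands, as GAAA, any 2 bases and GAAA again, and the element of interferon-gamma as TTCNNNGAA, which reads the same on both strands. The RefSeq promoter table used here (build GRCm38.p6) held windows for 29 of the 40 genes. The ISRE core stood in 9 of these 29 genes (31.0%), against 936 of 27025 genes with a window (3.46%). TTCNNNGAA stood in 6 of 29 (20.7%), against 8.13% of all genes. These are letter matches and not measured binding sites. The windows below are those of the 6 genes with an ISRE core that were called in the most comparisons, followed by Irf7, called in 5 comparisons without a match. They run 5′ to 3′ towards the start site, and capitals mark the ISRE core or its reverse complement, TTTC, any 2 bases and TTTC.
Bst2 (chr8:71537473-71537722, minus strand): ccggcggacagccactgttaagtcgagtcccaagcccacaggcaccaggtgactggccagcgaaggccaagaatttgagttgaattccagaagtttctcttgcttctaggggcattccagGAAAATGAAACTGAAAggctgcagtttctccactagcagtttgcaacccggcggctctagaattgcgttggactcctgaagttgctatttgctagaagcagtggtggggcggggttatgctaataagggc
Stat2 (chr10:128270248-128270497, plus strand): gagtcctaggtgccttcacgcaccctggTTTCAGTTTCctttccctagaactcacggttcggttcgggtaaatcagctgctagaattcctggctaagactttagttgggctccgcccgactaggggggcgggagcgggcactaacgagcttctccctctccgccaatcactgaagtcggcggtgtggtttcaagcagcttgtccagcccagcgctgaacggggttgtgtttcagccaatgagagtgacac
Ifit3 (chr19:34583279-34583528, plus strand): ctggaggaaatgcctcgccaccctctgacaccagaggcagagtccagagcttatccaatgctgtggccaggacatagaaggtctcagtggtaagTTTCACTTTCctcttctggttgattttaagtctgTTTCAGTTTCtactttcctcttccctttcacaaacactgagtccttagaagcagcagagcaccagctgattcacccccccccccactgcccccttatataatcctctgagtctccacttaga
Oas1a (chr5:120907526-120907775, minus strand): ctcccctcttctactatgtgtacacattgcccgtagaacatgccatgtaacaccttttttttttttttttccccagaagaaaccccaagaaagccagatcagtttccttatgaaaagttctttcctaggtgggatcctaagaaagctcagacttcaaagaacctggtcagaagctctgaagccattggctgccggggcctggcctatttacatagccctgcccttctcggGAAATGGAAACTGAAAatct
Oas3 (chr5:120777660-120777909, minus strand): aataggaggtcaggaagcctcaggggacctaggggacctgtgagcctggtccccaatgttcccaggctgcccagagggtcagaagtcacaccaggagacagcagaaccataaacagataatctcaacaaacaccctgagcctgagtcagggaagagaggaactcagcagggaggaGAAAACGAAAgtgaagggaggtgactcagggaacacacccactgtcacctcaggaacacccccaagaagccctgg
Rsad2 (chr12:26456453-26456702, minus strand): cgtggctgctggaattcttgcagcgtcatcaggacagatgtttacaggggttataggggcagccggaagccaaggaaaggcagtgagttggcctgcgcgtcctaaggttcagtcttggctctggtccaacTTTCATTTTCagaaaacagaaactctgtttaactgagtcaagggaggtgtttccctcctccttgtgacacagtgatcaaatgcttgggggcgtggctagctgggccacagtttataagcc
Irf7 (chr7:141266425-141266674, minus strand): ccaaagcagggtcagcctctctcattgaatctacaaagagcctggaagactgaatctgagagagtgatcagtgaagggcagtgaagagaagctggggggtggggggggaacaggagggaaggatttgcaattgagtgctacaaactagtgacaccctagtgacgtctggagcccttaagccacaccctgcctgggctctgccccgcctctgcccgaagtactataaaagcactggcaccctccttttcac
In Bst2 and Oas1a, 2 overlapping matches run into each other. In Ifit3 both matches lie on the strand opposite to the gene, the nearer one beginning 122 bases before the start site. The Oas3 and Rsad2 matches begin 75 and 120 bases before it and the Stat2 match 222 bases before it. No match in the Irf7 window says only that these letters are not in these 250 bases.

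The middle of the 40 genes, Psmb9 at 0 included, lay higher in most LSK libraries than in GMP libraries of the same genotype, and higher after TAM than after vehicle. The median over the genes of log2(CPM + 1) lay between 5.06 and 5.35 in Flt3 LSK at 2 weeks, 4.83 and 5.58 at 4 weeks, 5.20 and 5.57 at 6 weeks and 4.69 and 5.49 at 8 weeks, against 4.68 and 5.11 in WT LSK. In GMP cells it lay between 3.80 and 4.22, 3.40 and 4.85, 3.97 and 4.36, and 3.22 and 4.57 at 2, 4, 6 and 8 weeks of Flt3, against 2.98 and 3.57 in WT GMP. In each WT or Flt3 group the lowest LSK library was above the highest GMP library except at 4 weeks of Flt3, where 1 GMP library (4.85) passed the lowest LSK library (4.83).
In the deeper table the same median was 4.70 to 6.10 in Npm1 Flt3 LSK, against 4.42 and 4.62 in Dnmt3a Flt3 LSK. It was 3.93 to 4.91 in Npm1 Flt3 GMP, against 3.92 and 3.97 in Dnmt3a Flt3 GMP. The highest Npm1 Flt3 GMP library (4.91) passed the lowest Npm1 Flt3 LSK library (4.70). After TAM the median was 7.01, 5.84 and 7.22, against 3.33, 3.01 and 3.50 after vehicle, without overlap.

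**Figure D1:**
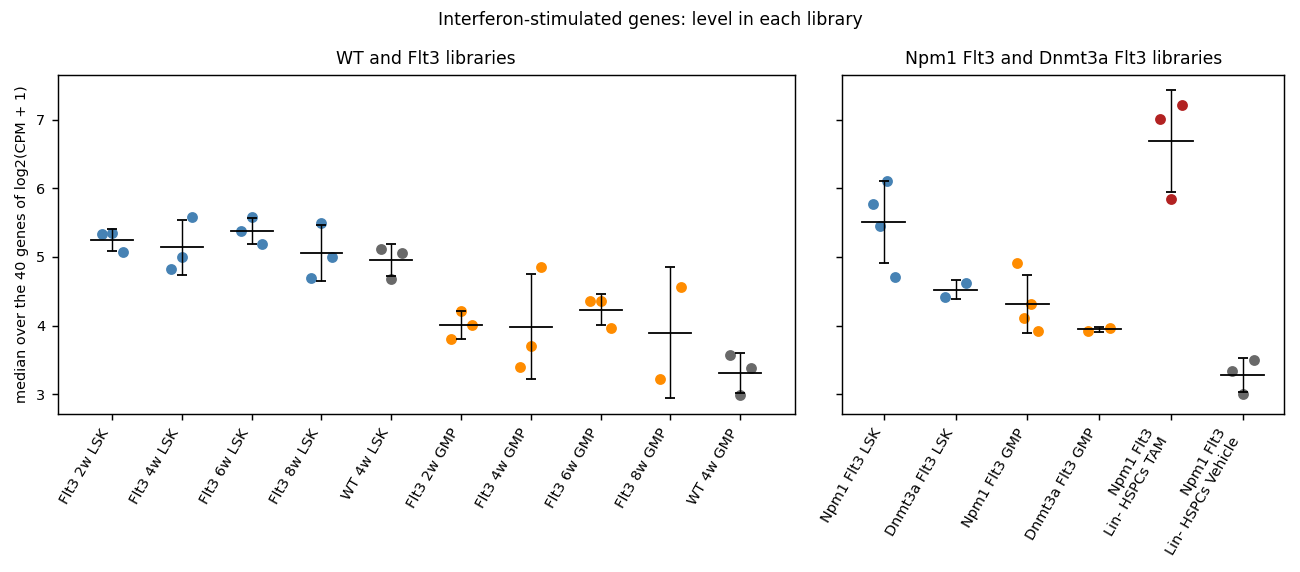
Median over the 40 interferon-stimulated genes of log2(CPM + 1) in each library, by group, with the mean and SD of each group as a line and bar and the 2 count tables apart because their levels were not compared. The 3 TAM libraries sit between 5.84 and 7.22 and the 3 vehicle libraries between 3.01 and 3.50.

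LSK and GMP libraries whose codes share a number were taken to come from the same animal, on the number alone. In 4 of the 5 WT and Flt3 groups, the animal with the highest median in LSK was also the highest in GMP, among the animals with both libraries. Flt3 mouse 7 at 4 weeks was an example, with medians of 5.58 in LSK and 4.85 in GMP; its GMP library was the highest of its group for 32 of the 39 genes and its LSK library for 25. This order is a description over 2 or 3 animals per group and was not tested.

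The first comparison set LSK against GMP cells of WT mice and shows where the genes stand in normal progenitors. In WT mice, 22 of the 39 genes tested were higher in LSK than in GMP (56.4%, against 15.5% of all 10619 genes tested) and 1 was lower (against 13.6%). The median change over the 39 genes was 1.46 on the log2 scale, or 1.38 with genes at 0 counts set to their bound, beside 0.13 over all genes. The background is the share of all genes called in the same direction. Calls are at an adjusted p under 0.05 in edgeR's quasi-likelihood test with Benjamini-Hochberg adjustment over all genes tested. Changes are log2 differences after TMM scaling. The value after ± is an approximate SE, the size of the change divided by the square root of its F statistic.

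Of the antiviral genes, Oas3, Oasl2 and Rsad2 were among those called higher with the smallest p. Oas3, a synthase of the oligoadenylates that activate RNase L, had 24.6, 21.0 and 15.7 CPM in WT LSK, against 0.985, 0.498 and 0.671 CPM in WT GMP. Those GMP values are 3 counts in all, against 128 counts in LSK, a ratio of 30.8 with a 95% counting interval of 10.3 to 151 (exact binomial, counting error only). The edgeR difference was 4.46 ± 0.82 (edgeR adjusted p = 4.15e-05), and the groups did not overlap. Its relative Oasl2 had 86.3, 30.9 and 56.1 CPM in WT LSK, against 4.93, 8.46 and 12.7 CPM in WT GMP, a difference of 2.40 ± 0.43 (edgeR adjusted p = 5.56e-05). Rsad2 (viperin), which makes a chain-terminating nucleotide, had 25.3, 8.65 and 15.4 CPM in WT LSK, against the same 3 counts in all in WT GMP (28.6-fold by counts, interval 9.55 to 141; edgeR adjusted p = 6.74e-05). Every LSK library of these genes was above every GMP library.

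Rtp4, a receptor-transporter family protein with antiviral activity, had 184, 86.5 and 141 CPM in WT LSK, against 26.6, 8.96 and 6.04 CPM in WT GMP, and was higher by 3.13 ± 0.56 (edgeR adjusted p = 0.00024). Parp12, an interferon-induced ADP-ribosyltransferase, had 36.8, 34.6 and 46.1 CPM in WT LSK, against 10.8, 7.96 and 2.68 CPM in WT GMP (2.17 ± 0.41, edgeR adjusted p = 5.56e-05). Neither gene's groups overlapped. Ifi44, an interferon-induced cytoplasmic protein, had 30.5, 3.71 and 21.5 CPM in WT LSK and 0 counts in WT GMP, which makes it at least 28.0-fold higher, against a floor of 3 counts over the GMP group.

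All 3 signalling genes were higher in LSK. Irf9, the DNA-binding subunit of the interferon complex, had 132, 108 and 129 CPM in WT LSK, against 48.3, 32.4 and 23.5 CPM in WT GMP (1.53 ± 0.28, edgeR adjusted p = 8.52e-05). Stat2, its partner, had 29.8, 33.4 and 32.3 CPM in WT LSK, against 8.87, 5.48 and 13.4 CPM in WT GMP (1.46 ± 0.37, edgeR adjusted p = 0.00237). Irf7, which amplifies interferon production, had 67.4, 28.4 and 79.1 CPM in WT LSK, against 19.7, 5.97 and 9.39 CPM in WT GMP (2.21 ± 0.74, edgeR adjusted p = 0.0316). These groups were apart for each of the 3 genes, with Irf7 the most spread.

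Ifit3, which binds Ifit1 on foreign RNA, had 8.07, 2.47 and 8.83 CPM in WT LSK, against 1.97, 0.498 and 1.34 CPM in WT GMP (2.23 ± 0.86, edgeR adjusted p = 0.0464). Isg15, a ubiquitin-like modifier, had 9.83, 1.24 and 11.5 CPM in WT LSK, against 1.97, 4.48 and 2.01 CPM in WT GMP, and was not called (1.16 ± 0.74, edgeR adjusted p = 0.256). WT LSK replicate 2 lay below the GMP libraries for Isg15, and it was the lowest LSK library for 25 of the 39 genes. Ly6e, a surface protein that limits viral fusion, was the gene called lower, with 1898, 1932 and 1493 CPM in WT LSK, against 1916, 2136 and 2196 CPM in WT GMP (-0.57 ± 0.16, edgeR adjusted p = 0.00867), and its groups overlapped.

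By role, the calls covered 3 of 3 PARP genes, 3 of 5 Oas genes, 2 of 3 Ifit genes, 4 of 8 other antiviral effectors, 2 of 4 genes of the ISG15 system and 2 of 6 nucleic acid sensors. The sensor called with the smallest p was Ddx58 (RIG-I), which recognises viral RNA ends, with 47.4, 54.4 and 34.2 CPM in WT LSK, against 0.985, 2.49 and 6.71 CPM in WT GMP. Tap1, the peptide pump of MHC class I, had 239, 293 and 272 CPM in WT LSK, against 126, 134 and 146 CPM in WT GMP (0.63 ± 0.13, edgeR adjusted p = 0.00031). Of 77 other genes of the interferon pathway, 61 were tested, 24 were higher in LSK and 5 lower. Ly6a, used in the LSK gate, was higher by 4.55 ± 0.54 (edgeR adjusted p = 1.2e-06).

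Among the receptors and kinases, Jak1 (1.13), Ifnar1 (0.81) and Jak2 (0.77) were higher in WT LSK and Ifngr1, a chain of the interferon-gamma receptor, was lower (-1.64). Of the factors Irf2 (1.41) and Rela (0.98) were higher, and of the sensing genes Tbk1 was higher (0.70) and Ikbke lower (-0.99). The feedback inhibitors Socs3 (3.40) and Socs1 (1.35) and the regulator Trim24 (1.24) were higher. Of the GTPases Igtp (1.34) and Iigp1 (5.36) were higher and Gbp3 lower (-1.01), and of the MHC class I list H2-K1 (0.52) and Nlrc5 (1.61) were higher and Psme2 lower (-0.52). Markers of other cells moved with this comparison: the summed markers of iron-recycling macrophages were 311 to 1990 CPM in WT LSK, against 78.1 to 136 CPM in WT GMP, and all 6 were called higher. Summed markers were also higher for plasmacytoid dendritic cells (37.1 to 41.8 CPM in WT LSK, against 3.94 to 10.7 CPM in WT GMP), conventional dendritic cells (440 to 736 CPM, against 118 to 141 CPM), erythroid cells (462 to 663 CPM, against 120 to 180 CPM) and megakaryocytes (654 to 994 CPM, against 299 to 405 CPM). The part of these cells in the result was not tested. With the animal as a block, LSK was set against GMP of the same code number, and 23 genes were called as well. Ifit3 (edgeR adjusted p = 0.0636), Ddx60, Mx2 and Parp14 were not among them. Without WT GMP replicate 2 the calls came to 14, and Irf7, Ifit1, Ifit3, Usp18, Oasl1, Parp9, Parp14, Ddx60 and Mx2 were not called.

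**Figure D2:**
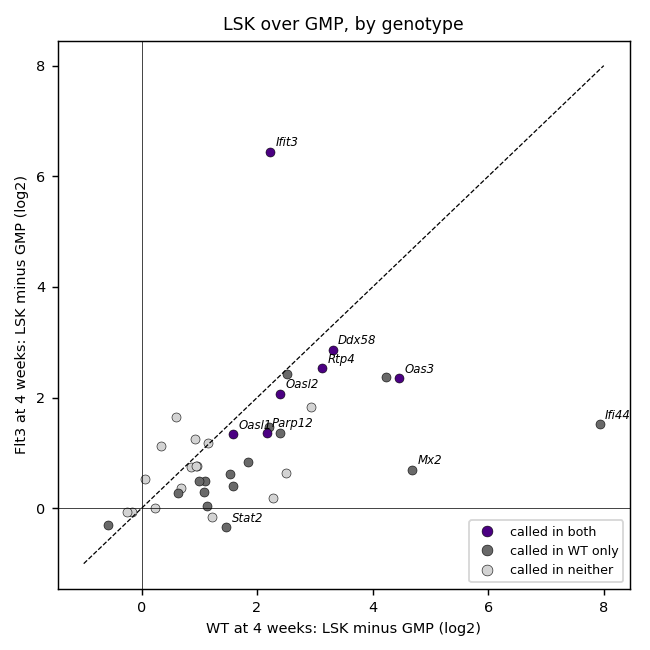
log2 difference of LSK minus GMP for each of the 39 measured genes in Flt3 mice at 4 weeks (vertical axis) and in WT mice at 4 weeks (horizontal axis), coloured by where the gene was called, with a dashed line of equality. Most genes lie right of and above 0, with medians of 0.76 in Flt3 and 1.46 in WT, and the genes called in Flt3, Oasl2 and Rtp4 among them, are named.

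The same comparison in Flt3 mice at 4 weeks gave fewer calls. Of 39 genes tested, 7 were higher in LSK (17.9%, against 2.28% of all genes tested) and 0 were lower (against 2.94%), where 5.22% of all genes were called in either direction. At an unadjusted p under 0.05 edgeR gave 17 higher and 0 lower, and DESeq2 called 9 higher and 0 lower. The median change was 0.76, beside 0.01 over all genes. Oasl2 had 38.1, 88.9 and 97.0 CPM in Flt3 LSK, against 10.5, 8.43 and 28.4 CPM in Flt3 GMP (2.07 ± 0.43, edgeR adjusted p = 0.00179), without overlap. Rtp4 had 50.1, 134 and 178 CPM in Flt3 LSK, against 14.0, 10.8 and 31.5 CPM in Flt3 GMP (2.53 ± 0.57, edgeR adjusted p = 0.00948), again without overlap.

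Ifit3 had 0.668, 9.36 and 10.9 CPM in Flt3 LSK and 0 counts in the 3 Flt3 GMP libraries, at least 5.47-fold higher (edgeR adjusted p = 0.0174). Oas3 had 7.35, 21.5 and 31.7 CPM in Flt3 LSK, against 0, 2.41 and 7.36 CPM in Flt3 GMP (2.35 ± 0.69, edgeR adjusted p = 0.0297). Ddx58 had 10.7, 43.1 and 35.3 CPM in Flt3 LSK, against 0, 1.20 and 8.41 CPM in Flt3 GMP (2.86 ± 0.82, edgeR adjusted p = 0.0381). For Oas3 the highest GMP library just passed the lowest LSK library, while Ddx58 did not overlap. The Ifit3 values did not overlap either, but the lowest LSK value was 1 count. A single count in the GMP libraries would be 1.05 to 1.75 CPM, above that LSK value, so the order of these libraries is not resolved. Oasl1, a relative of the Oas enzymes, was higher by 1.34 ± 0.40 (edgeR adjusted p = 0.039), and Parp12 by 1.37.

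Irf7 had 55.4, 138 and 163 CPM in Flt3 LSK, against 19.2, 34.9 and 60.9 CPM in Flt3 GMP (1.47 ± 0.64, edgeR adjusted p = 0.249). Isg15 had 4.01, 20.6 and 21.1 CPM in Flt3 LSK, against 1.75, 9.63 and 6.31 CPM in Flt3 GMP (1.18 ± 0.72, edgeR adjusted p = 0.448). Stat2 had 40.1, 18.7 and 28.7 CPM in Flt3 LSK, against 38.4, 36.1 and 30.5 CPM in Flt3 GMP (-0.34 ± 0.34, edgeR adjusted p = 0.714). None of these was called, and in each the groups overlapped. Of the other pathway genes, 4 of 61 were higher and 1 lower: Igtp (0.92), H2-K1 (0.49), Iigp1 (2.47) and Socs1 (1.05), and Ifngr2 (-1.17). Ly6a was higher by 3.96 ± 0.46 (edgeR adjusted p = 7.45e-06). Plasmacytoid dendritic cell markers summed to 40.8 to 116 CPM in Flt3 LSK, against 9.63 to 17.5 CPM in Flt3 GMP, with 1 of the 4 tested called higher, and their part was not tested. With the animal as a block 12 genes were called, Irf7 among them (1.53, edgeR adjusted p = 0.0123), and with no filter on low counts 11. Without Flt3 4-week GMP replicate 1, GMP replicate 2 or LSK replicate 3 a single gene was called each time.

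Whether the change from WT to Flt3 mice differed between LSK and GMP at 4 weeks was tested with the difference of the differences. Of the 39 genes, 1 was called (2.56%, against 5.25% of all genes in either direction, 2.17% lower and 3.09% higher), a share near the background. This was Stat2, whose Flt3 change was lower in LSK than in GMP by 1.80 ± 0.51 on the log2 scale (edgeR adjusted p = 0.0267). Flt3 GMP libraries had 30.5 to 38.4 CPM of Stat2, against 5.48 to 13.4 CPM in WT GMP, while Flt3 LSK libraries had 18.7 to 40.1 CPM, against 29.8 to 33.4 CPM in WT LSK. The median difference over the 39 genes was -0.51, beside -0.08 over all genes. Irf7 (-0.74 ± 1.01, edgeR adjusted p = 0.756), Ifit3 (4.22 ± 2.44, edgeR adjusted p = 0.355) and Isg15 (0.03 ± 1.50, edgeR adjusted p = 1) were not called.
Of 61 other pathway genes Ifngr1 (1.19) and Ptpn2 (0.88) were called higher, and Ifnar2 (-0.66) and Irf2 (-1.06) lower. Ly6a (-0.60 ± 0.82, edgeR adjusted p = 0.76) was not called. With the animal as a block 3 genes were called, Stat2, Ifi27l2a and Ifi44, and Stat2 was not called in 7 of the 12 fits that each left out 1 library of these groups.

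Flt3 GMP cells, taken over all 4 times, were set against WT GMP cells, which asks how the genes differ between these mice in committed progenitors. Of 32 genes that passed the filter on low counts, 9 were higher in Flt3 GMP (28.1%, against 11.7% of all 9602 genes tested) and 0 were lower (against 13.3%); 7 genes with counts were too low in GMP to be tested. The median change was 0.65, beside 0.04 over all genes. At an unadjusted p under 0.05 edgeR gave 20 higher and 0 lower, and DESeq2 called 11 higher and 0 lower.

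Stat2 rose in the Flt3 GMP libraries of each time. It had 30.5, 52.9 and 42.4 CPM at 2 weeks, 38.4, 36.1 and 30.5 CPM at 4 weeks, 27.8, 41.7 and 19.9 CPM at 6 weeks and 38.9 and 31.2 CPM at 8 weeks in Flt3 GMP, against 8.87, 5.48 and 13.4 CPM in WT GMP. Each of the 11 Flt3 libraries was above each WT library, and the change was 1.81 ± 0.32 (edgeR adjusted p = 4.95e-05). Mx1, a dynamin-like GTPase that traps viral nucleoproteins, had 18.4, 28.8 and 23.8 CPM at 2 weeks, 0, 8.43 and 10.5 CPM at 4 weeks, 5.11, 8.16 and 11.9 CPM at 6 weeks and 8.90 and 17.8 CPM at 8 weeks in Flt3 GMP, against 0, 0.498 and 0.671 CPM in WT GMP. These are 329 counts against 2, a ratio of 38.3 with a counting interval of 10.5 to 318, and the change passed the test (edgeR adjusted p = 4.05e-05). The 2-week libraries were the highest and 1 library at 4 weeks had 0.

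Ifi27l2a, an interferon-induced membrane protein, had 12.0 to 111 CPM with a median of 50.04 over the 11 Flt3 GMP libraries, against 2.96, 4.48 and 0 CPM in WT GMP (4.05 ± 0.85, edgeR adjusted p = 0.00551), without overlap. Ifi44 had 0 to 27.3 CPM in Flt3 GMP and 0 counts in WT GMP, at least 12.4-fold higher (edgeR adjusted p = 0.00105), and it was lowest at 2 weeks. Ifi35, a leucine-zipper protein, had 127 to 279 CPM with a median of 181 in Flt3 GMP, against 104, 84.1 and 101 CPM in WT GMP (0.78 ± 0.15, edgeR adjusted p = 0.000179), without overlap. Tap1 had 186 to 255 CPM in Flt3 GMP, against 126, 134 and 146 CPM in WT GMP (0.59 ± 0.12, edgeR adjusted p = 0.000338), also without overlap.

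Trim25, the ubiquitin ligase that acts with RIG-I, was higher by 1.16 ± 0.27 (edgeR adjusted p = 0.00139), Irf9 by 1.18 ± 0.29 (edgeR adjusted p = 0.00552) and Bst2 (tetherin), which holds budding virus to the cell, by 0.50 ± 0.16 (edgeR adjusted p = 0.0184). Bst2 had 58.9 to 99.6 CPM in Flt3 GMP, against 46.3, 54.8 and 55.0 CPM in WT GMP, without overlap, while the Irf9 ranges met. Irf7 had 7.78 to 231 CPM with a median of 55.4 in Flt3 GMP, against 19.7, 5.97 and 9.39 CPM in WT GMP, and missed the threshold (2.16 ± 0.74, edgeR adjusted p = 0.0611). Isg15 had 1.75 to 10.2 CPM in Flt3 GMP, against 1.97, 4.48 and 2.01 CPM in WT GMP (0.81 ± 0.60, edgeR adjusted p = 0.354). Ifit3 was too low to be tested, with 0 to 8.01 CPM in Flt3 GMP, against 1.97, 0.498 and 1.34 CPM in WT GMP. By role, 2 of 3 signalling genes and 3 of 5 other induced genes rose, while the sensors and Oas genes tested gave no call.

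Of 77 other pathway genes 53 were tested, 23 were higher in Flt3 GMP and 2 lower. Ly6a was higher by 1.42 ± 0.52 (edgeR adjusted p = 0.0423). Among those called with the smallest p of their lists were Ifngr1 (-1.14), Ifnar2 (0.59) and Jak2 (1.16) of the receptors and kinases, Irf8 (2.31) and Irf5 (2.42) of the factors, and Tlr3 (5.61), Tmem173 (0.56) and Adar (0.90) of the sensing genes. Socs1 (2.09), Ptpn6 (0.41), Gbp7 (2.33), Ciita (6.62), Igtp (0.81), Gbp3 (0.50), H2-D1 (0.51) and Tapbp (0.55) were higher, and Psmb10 was lower (-0.43). The 8 summed markers of conventional dendritic cells, which hold Flt3 and MHC class II genes, were 950 to 28424 CPM in Flt3 GMP, against 118 to 141 CPM in WT GMP, and all 8 were called higher. The GMP markers themselves were lower, with 14953 to 31427 CPM in Flt3 GMP, against 45611 to 55534 CPM in WT GMP, and all 6 were called lower. Late neutrophil markers summed to 1.20 to 78.1 CPM in Flt3 GMP, against 312 to 710 CPM in WT GMP. Markers of iron-recycling macrophages were lower as well, with 6.67 to 74.7 CPM in Flt3 GMP, against 78.1 to 136 CPM in WT GMP. Basophil and mast cell markers reached 56379 to 70106 CPM at 2 weeks, against 1315 to 1590 CPM in WT GMP. The part of these markers in the changes was not tested; without the 2-week libraries the 9 genes were still called, among 13.

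At 4 weeks alone, the time shared with WT, 8 of 32 genes were higher in Flt3 GMP (25.0%, against 6.54% of all genes) and 0 were lower (against 8.3%; edgeR 12 higher and 0 lower at an unadjusted p under 0.05, DESeq2 8 and 0), with a median of 0.64 beside 0.04 over all genes. Ifi44 had 10.5, 6.02 and 27.3 CPM in Flt3 GMP, against 0 counts in WT GMP, at least 22.0-fold higher (edgeR adjusted p = 0.000348). Stat2 was higher by 1.73 ± 0.38 (edgeR adjusted p = 0.00161) and Ifi35, with 169.5, 172.2 and 217.5 CPM in Flt3 GMP against 104, 84.1 and 101 CPM in WT GMP, by 0.75 ± 0.19 (edgeR adjusted p = 0.00451). Mx1 rested on 17 counts in Flt3 GMP and 2 in WT GMP, a ratio of 16.3 with a counting interval of 3.87 to 145 (edgeR adjusted p = 0.00817).
Trim25 had 29.7, 27.7 and 45.2 CPM in Flt3 GMP, against 10.8, 14.4 and 12.1 CPM in WT GMP (1.24 ± 0.33, edgeR adjusted p = 0.0085), and Ifi27l2a had 21.0, 12.0 and 111 CPM, against 2.96, 4.48 and 0 CPM in WT GMP (4.01 ± 0.96, edgeR adjusted p = 0.0179). Of these 6 genes, Mx1 alone overlapped, through a Flt3 library at 0. Tap1 (0.49) and Ly6e (0.37) were the other genes called. Irf7 (1.69 ± 0.90, edgeR adjusted p = 0.268) and Isg15 (0.83 ± 0.77, edgeR adjusted p = 0.526) were not called. Ifit3 had 0 counts in the 3 Flt3 GMP libraries, against 1.97, 0.498 and 1.34 CPM in WT GMP.
Of 53 other pathway genes 19 were higher and 2 lower, while Ly6a missed the threshold (1.77 ± 0.62, edgeR adjusted p = 0.0502). Among the genes called were Ifnar2 (0.74), Tyk2 (1.15), Il10rb (0.58), Irf8 (2.22), Irf5 (1.72), Tlr3 (4.59), Tmem173 (0.50), Socs1 (2.26) and Ptpn6 (0.47), and Gbp7 (2.59), Igtp (1.07), Gbp3 (0.71), Ciita (5.99), H2-D1 (0.50), Tapbp (0.49) and Tap2 (0.55). Ifngr1 (-1.48) and Psmb10 (-0.45) were the genes called lower. Without Flt3 4-week GMP replicate 3, 4 of the 8 genes were called, and Mx1, Trim25, Tap1 and Ly6e were not.

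**Figure D3:**
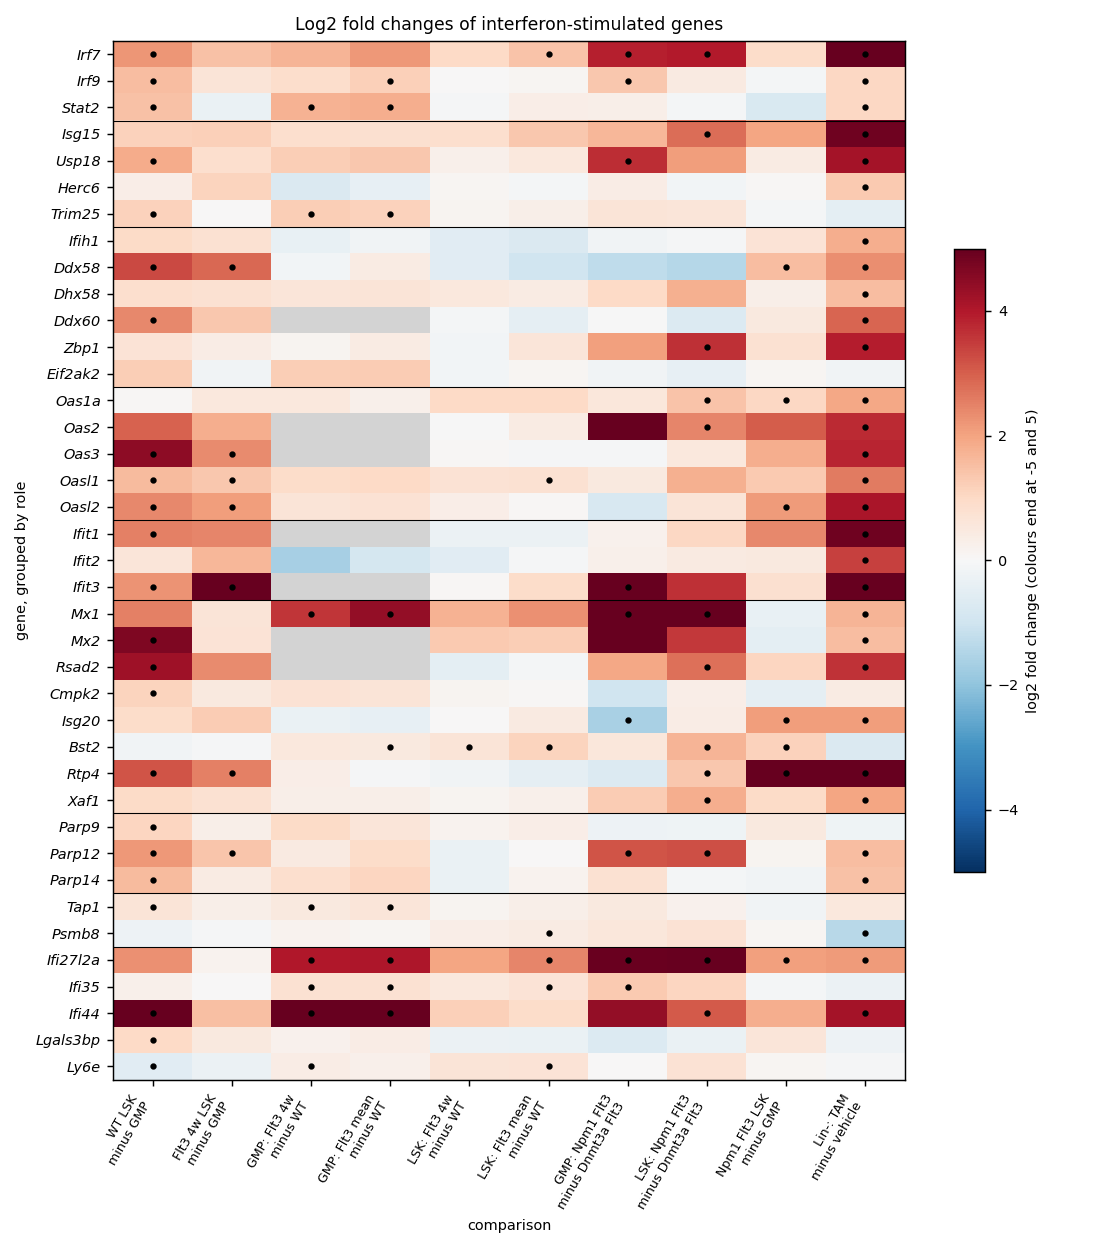
log2 fold change of the 39 measured genes (rows, grouped by role) in 10 comparisons (columns), red above 0 and blue below, with a dot where the gene was called and light grey where it was not tested. The columns of TAM minus vehicle (median 1.94) and WT LSK minus WT GMP (median 1.46) hold the most dots, 30 and 23.

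In LSK cells 7 of 39 were higher in Flt3 mice over all 4 times (17.9%, against 6.89% of all 9892 genes tested) and 0 were lower (against 8.07%). At an unadjusted p under 0.05 edgeR gave 12 higher and 3 lower, and DESeq2 called 9 higher and 0 lower. The median change was 0.31, beside -0.00 over all genes. Bst2 had 152.5, 169.1 and 150.9 CPM at 2 weeks, 62.8, 109 and 98.3 CPM at 4 weeks, 136, 120 and 119 CPM at 6 weeks and 93.1, 114 and 114 CPM at 8 weeks in Flt3 LSK, against 76.9, 42.0 and 51.9 CPM in WT LSK. A single Flt3 library at 4 weeks lay within the WT range, and the change was 1.10 ± 0.17 (edgeR adjusted p = 2.02e-05). Psmb8, an immunoproteasome subunit, had 1397 to 1804 CPM with a median of 1635 in the 12 Flt3 LSK libraries, against 1188, 1362 and 1313 CPM in WT LSK (0.42 ± 0.10, edgeR adjusted p = 0.00269), without overlap.

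Irf7 had 295, 382 and 231 CPM at 2 weeks, 55.4, 138 and 163 CPM at 4 weeks, 173, 189 and 72.1 CPM at 6 weeks and 80.6, 147 and 121 CPM at 8 weeks in Flt3 LSK, against 67.4, 28.4 and 79.1 CPM in WT LSK. The 2-week libraries were the highest, and the change over all times was 1.44 ± 0.41 (edgeR adjusted p = 0.039). Irf7 was not called with no filter on low counts, with the title number as a block, or in 11 of the 15 fits that each left out 1 library. Ifi35 was higher by 0.70 ± 0.17 (edgeR adjusted p = 0.00497), Ifi27l2a by 2.45 ± 0.57 (edgeR adjusted p = 0.014), Ly6e by 0.67 ± 0.18 (edgeR adjusted p = 0.0164) and Oasl1 by 0.75 ± 0.24 (edgeR adjusted p = 0.0308). Stat2 had 18.7 to 54.6 CPM in Flt3 LSK, against 29.8 to 33.4 CPM in WT LSK, and was not called (0.31 ± 0.26, edgeR adjusted p = 0.486). Isg15 (1.33 ± 0.60, edgeR adjusted p = 0.176) and Ifit3 (0.91 ± 0.48, edgeR adjusted p = 0.243) were not called either. The sensors, Ifit genes and PARP genes gave no call; Ddx58 and Ifih1, with Lgals3bp, had the changes below 0 at an unadjusted p under 0.05.

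Without the 2-week libraries the genes called in LSK were 2, Bst2 and Psmb8, and Irf7, Ifi27l2a, Ifi35, Ly6e and Oasl1 were not called. In LSK, plasma cell markers were highest at 2 weeks of Flt3, with 6092 to 16206 CPM, against 313 to 522 CPM in WT LSK. Markers of plasmacytoid dendritic cells, which make much interferon, summed to 490 to 548 CPM at 2 weeks, against 37.1 to 41.8 CPM in WT LSK. Conventional dendritic cell markers summed to 1840 to 20972 CPM over the Flt3 LSK libraries, against 440 to 736 CPM in WT LSK, and all 8 were called higher. Markers of iron-recycling macrophages went the other way, with 6.45 to 53.4 CPM over the Flt3 LSK libraries, against 311 to 1990 CPM in WT LSK. Erythroid markers were also lower, at 88.7 to 133 CPM at 2 weeks of Flt3, against 462 to 663 CPM in WT LSK. Megakaryocyte markers had 42.6 to 133 CPM at 2 weeks of Flt3, against 654 to 994 CPM in WT LSK. Of the 7 LSK markers 6 were called lower in Flt3 LSK, with summed levels of 672 to 1311 CPM, against 1394 to 1549 CPM in WT LSK. The part of these markers in the changes was not tested. Without WT LSK replicate 1, or without replicate 3, the calls came to 3.

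Of 59 other pathway genes tested in LSK, 14 were higher and 4 lower. Among them Tyk2 (0.94), Irf8 (3.05), Irf5 (1.91), Nfkb1 (0.65), Tlr3 (4.94), Tmem173 (0.47), Myd88 (0.51), Socs1 (1.90), Gbp3 (0.96), Gbp7 (1.22), Ciita (2.97), Psme1 (0.39) and Psme2 (0.37) were higher, and Jak1 (-0.67) and Stat3 (-0.93) lower. Ly6a was higher by 1.04 ± 0.31 (edgeR adjusted p = 0.046).

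At 4 weeks alone 1 of 39 genes was higher in Flt3 LSK (2.56%, against 4.54% of all genes) and 0 were lower (against 5.6%), a share under the background. At an unadjusted p under 0.05 edgeR gave 6 higher and 0 lower, and DESeq2 called 3 higher and 0 lower. The gene was Bst2 (0.64 ± 0.20, edgeR adjusted p = 0.0393), which was not called in 4 of the 6 fits that each left out 1 library, those without replicate 2 or 3 of Flt3 LSK and without replicate 2 or 3 of WT LSK. The median was 0.12, beside -0.01 over all genes, and it lay between -0.10 and 0.34 when 1 library was left out in turn. Irf7 (0.98 ± 0.48, edgeR adjusted p = 0.268), Isg15 (0.86 ± 0.73, edgeR adjusted p = 0.552), Stat2 (-0.06 ± 0.32, edgeR adjusted p = 0.94) and Ifit3 (0.05 ± 0.61, edgeR adjusted p = 0.978) were not called. Of 59 other pathway genes 10 were higher and 2 lower: Irf8 (2.76), Nfkb1 (0.58), Irf5 (1.26), Tlr3 (4.08), Tmem173 (0.60), Socs1 (1.96), Gbp3 (1.27), Gbp7 (1.31), Igtp (0.66) and Ciita (2.41), and Jak1 (-0.62) and Stat3 (-0.99). Ly6a (1.17 ± 0.37, edgeR adjusted p = 0.0717) was not called.

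The slope over 2, 4, 6 and 8 weeks in Flt3 mice shows how the genes moved with time. In GMP cells 1 of 31 genes rose with time (3.23%, against 3.33% of all 9372 genes) and 4 fell (12.9%, against 8.91%), shares near the background, with a median of -0.03 per week beside 0.00 over all genes. Ly6e fell by 0.15 ± 0.02 per week on the log2 scale (edgeR adjusted p = 5.24e-05), with means of 3110, 3115, 2541 and 2151 CPM at 2, 4, 6 and 8 weeks. Isg20, an exonuclease of single-stranded RNA, fell by 0.31 ± 0.06 (edgeR adjusted p = 0.00236), with 67.2, 30.4 and 51.3 CPM at 2 weeks, 19.2, 19.3 and 55.7 CPM at 4 weeks, 26.7, 19.9 and 21.5 CPM at 6 weeks and 15.6 and 22.7 CPM at 8 weeks. The 4-week libraries of Isg20 were the most spread.

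Zbp1, a sensor of Z-form nucleic acid that triggers cell death, fell by 0.39 ± 0.10 per week (edgeR adjusted p = 0.0097), with 13.2, 46.5 and 22.7 CPM at 2 weeks and 2.22 and 11.4 CPM at 8 weeks. Ifi35 fell by 0.13 ± 0.04 (edgeR adjusted p = 0.0291). Trim25 rose by 0.19 ± 0.05 (edgeR adjusted p = 0.023), with 13.2, 19.2 and 15.0 CPM at 2 weeks and 27.7 to 51.1 CPM at later times, so that the step lay between 2 and 4 weeks. Irf7 had a slope of -0.38 ± 0.13 per week (edgeR adjusted p = 0.089), and Irf7, Stat2 (-0.12 ± 0.05, edgeR adjusted p = 0.169) and Isg15 (0.05 ± 0.12, edgeR adjusted p = 0.828) were not called. Ifit3 was too low to be tested.

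Without the 2-week libraries none of the 31 genes was called in edgeR and 8 genes of the whole table were. Without the 8-week libraries 9 were called. The 2-week GMP libraries are those with 56379 to 70106 CPM of basophil and mast cell markers, against 345 to 1134 CPM at later times, and their part in the slopes was not tested. Of 53 other pathway genes 3 rose and 11 fell: Il10rb (0.11), Irf2bp2 (0.18) and Gbp3 (0.14) rose, and Tyk2 (-0.23), Ifngr1 (-0.17), Jak2 (-0.25), Irf5 (-0.36), Tlr3 (-0.54), Ubash3b (-0.20), Cxcl9 (-0.88), Ciita (-0.69), H2-D1 (-0.10), Tapbp (-0.10) and Psme1 (-0.09) fell. Ly6a (-0.02 ± 0.10, edgeR adjusted p = 0.94) was not called.

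**Figure D4:**
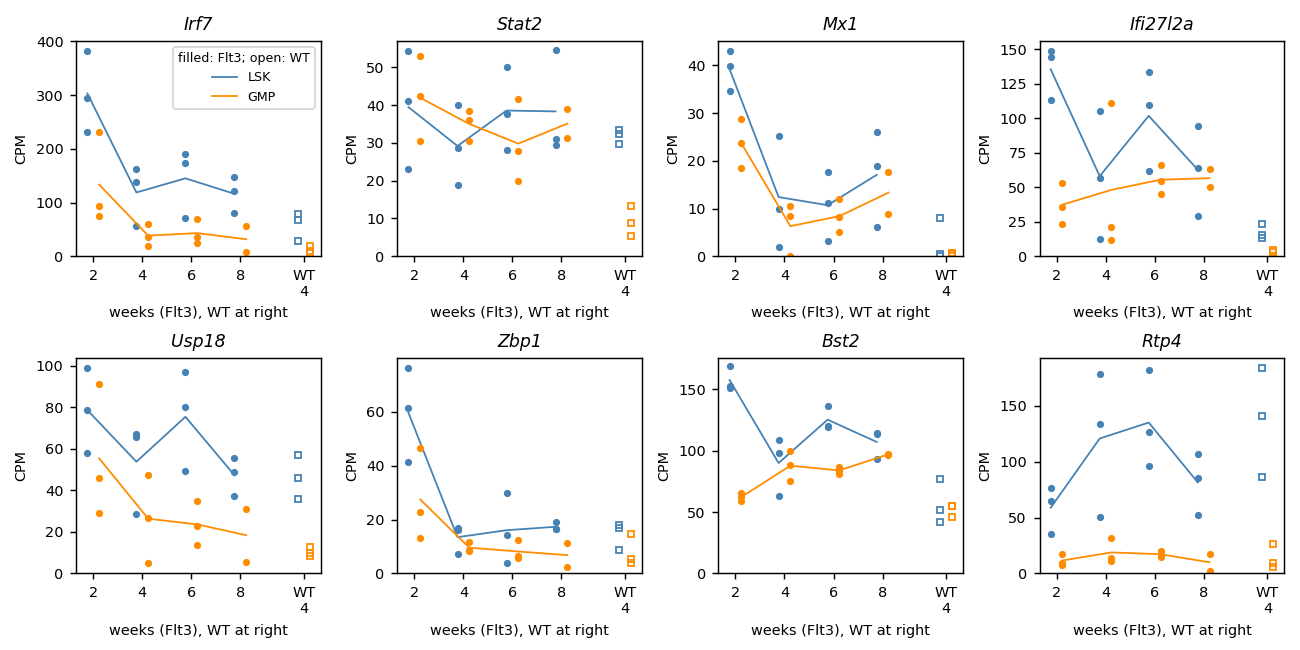
CPM of 8 of the genes in each Flt3 library at 2, 4, 6 and 8 weeks (filled points, with lines through the group means) and in WT at 4 weeks (open squares), for LSK (blue) and GMP (orange). Stat2 in Flt3 GMP lies above the 5.48 to 13.4 CPM of WT GMP at each time, and Irf7 in Flt3 LSK is highest at 2 weeks, at 231 to 382 CPM.

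In LSK cells 0 of 39 genes passed the test of the slope in edgeR (12 had an unadjusted p under 0.05), DESeq2 called 2, and 0.722% and 1.98% of all 9556 genes rose and fell. The median slope was -0.06 per week, beside 0.00 over all genes. Irf7 had a slope of -0.26 ± 0.09 (edgeR adjusted p = 0.14), Ifit3 of -0.22 ± 0.12 (edgeR adjusted p = 0.318), Isg15 of -0.13 ± 0.12 (edgeR adjusted p = 0.595) and Stat2 of -0.04 ± 0.06 (edgeR adjusted p = 0.785). Ifit3 had 27.8, 23.8 and 22.9 CPM at 2 weeks and 0.668 to 19.6 CPM at later times. Of 59 other pathway genes 1 was called, Gbp4 (-0.61), and Ly6a had a slope of -0.25 ± 0.06 (edgeR adjusted p = 0.0521).

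Npm1 Flt3 and Dnmt3a Flt3 mice carry the Flt3 mutation with different partners and were set against each other in both cell types. Their code prefixes differ too, and prefix and genotype cannot be told apart. In LSK cells 13 of 39 genes were higher in Npm1 Flt3 mice (33.3%, against 7.8% of all 19470 genes tested) and 0 were lower (against 3.76%; edgeR 21 higher and 1 lower at an unadjusted p under 0.05, DESeq2 18 and 1), with a median change of 1.05 beside -0.00 over all genes. Ifi27l2a had 74.9, 30.3, 99.3 and 34.2 CPM in Npm1 Flt3 LSK, against 0.872 and 0.580 CPM in Dnmt3a Flt3 LSK (6.40 ± 0.70, edgeR adjusted p = 0.0011). Mx1 had 74.8, 21.9, 55.8 and 22.4 CPM in Npm1 Flt3 LSK, against 1.42 and 1.01 CPM in Dnmt3a Flt3 LSK (5.18 ± 0.67, edgeR adjusted p = 0.00202). In both genes the lowest Npm1 Flt3 library was far above the Dnmt3a Flt3 libraries.

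Irf7 had 342, 230, 529 and 97.9 CPM in Npm1 Flt3 LSK, against 17.1 and 21.9 CPM in Dnmt3a Flt3 LSK (3.98 ± 0.63, edgeR adjusted p = 0.00478). Parp12 had 32.6, 23.7, 17.1 and 12.3 CPM in Npm1 Flt3 LSK, against 2.71 and 1.91 CPM in Dnmt3a Flt3 LSK (3.21 ± 0.51, edgeR adjusted p = 0.00464). Ifi44 had 33.7, 25.6, 35.6 and 17.1 CPM in Npm1 Flt3 LSK, against 4.997 and 1.846 CPM in Dnmt3a Flt3 LSK (3.06 ± 0.55, edgeR adjusted p = 0.00798). The groups did not overlap for these genes either, and Npm1 Flt3 LSK replicate 4, the lowest in 30 of the 39 genes, stood nearest to Dnmt3a Flt3.

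Zbp1 was higher by 3.66 ± 0.67 (edgeR adjusted p = 0.00861) and Isg15, with 26.2, 16.1, 44.3 and 11.7 CPM in Npm1 Flt3 LSK against 3.92 and 3.48 CPM in Dnmt3a Flt3 LSK, by 2.78 ± 0.62 (edgeR adjusted p = 0.0184). The other called genes were Rsad2 (2.74), Oas2 (2.46), the apoptosis-linked Xaf1 (1.83), Bst2 (1.70), Oas1a (1.42) and Rtp4 (1.36), so that 5 of 8 other antiviral effectors and 2 of 5 Oas genes were higher. Ifit3 had 9.22, 8.47, 16.5 and 0.134 CPM in Npm1 Flt3 LSK, against 0.0623 and 1.33 CPM in Dnmt3a Flt3 LSK, and was not called (3.65 ± 1.62, edgeR adjusted p = 0.181). Stat2 had 80.7, 61.0, 135 and 18.9 CPM in Npm1 Flt3 LSK, against 91.8 and 70.1 CPM in Dnmt3a Flt3 LSK (-0.09 ± 0.57, edgeR adjusted p = 0.946), with the ranges overlapping.

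Of 69 other pathway genes tested 13 were higher and 2 lower in Npm1 Flt3 LSK. Jak2 (2.62), Ifngr2 (1.79), Ifngr1 (1.05), Irf8 (4.64), Irf5 (2.22), Tlr3 (6.18), Samhd1 (2.08), Irf2bp2 (2.33), Irf2bp1 (2.60), Trim24 (2.64), Ciita (2.97) and Cxcl9 (3.40) were higher, with Mb21d1 (1.68; cGAS), and Jak1 (-0.96) and Nlrc5 (-0.97) lower. Ly6a was higher by 1.73 ± 0.29 (edgeR adjusted p = 0.00586). Markers of plasmacytoid dendritic cells summed to 279 to 453 CPM in Npm1 Flt3 LSK, against 4.06 and 7.58 CPM in Dnmt3a Flt3 LSK, with all 6 called higher. Those of conventional dendritic cells summed to 7502 to 30867 CPM, against 822 and 984 CPM, with all 8 called higher, and Npm1 Flt3 LSK replicate 4 was the lowest for both lists. Their part in the changes was not tested. The Dnmt3a Flt3 group has 2 libraries, and leaving out either one gave 5 calls; the lone library is then assumed to vary like those of Npm1 Flt3 LSK.

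In GMP cells 8 of 39 genes were higher in Npm1 Flt3 mice (20.5%, against 12.5% of all 17200 genes tested) and 1 was lower (2.56%, against 8.22%), with a median of 0.57 beside 0.06 over all genes. Ifit3 had 6.81, 2.63, 5.39 and 2.03 CPM in Npm1 Flt3 GMP and 0 counts in Dnmt3a Flt3 GMP, at least 263-fold higher (edgeR adjusted p = 0.00367). Ifi27l2a had 23.2, 8.90, 10.5 and 7.76 CPM in Npm1 Flt3 GMP, against 0.388 and 0.419 CPM in Dnmt3a Flt3 GMP (4.92 ± 0.68, edgeR adjusted p = 0.00352). Irf7 had 263, 107, 92.3 and 83.6 CPM in Npm1 Flt3 GMP, against 10.0 and 7.90 CPM in Dnmt3a Flt3 GMP (3.90 ± 0.59, edgeR adjusted p = 0.00472). In these genes no library of one group reached the other.

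Mx1 had 93.7, 38.8, 27.6 and 30.4 CPM in Npm1 Flt3 GMP, against 0.685 and 0.0455 CPM in Dnmt3a Flt3 GMP (7.06 ± 1.19, edgeR adjusted p = 0.00694). Usp18, the protease that strips ISG15 and damps the receptor, had 95.2, 41.8, 34.9 and 15.5 CPM in Npm1 Flt3 GMP, against 3.54 and 3.64 CPM in Dnmt3a Flt3 GMP (3.68 ± 0.75, edgeR adjusted p = 0.0137). Ifi35 was higher by 1.30 ± 0.30 (edgeR adjusted p = 0.0209), Irf9 by 1.35 and Parp12 by 3.13. Npm1 Flt3 GMP replicate 1 was the highest of its group in 30 of the 39 genes.

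Isg20 was the gene called lower, with 22.2, 14.4, 11.0 and 11.1 CPM in Npm1 Flt3 GMP, against 44.3 and 43.2 CPM in Dnmt3a Flt3 GMP (-1.61 ± 0.33, edgeR adjusted p = 0.0146). Isg15 had 10.7, 3.55, 4.19 and 3.51 CPM in Npm1 Flt3 GMP, against 0.905 and 2.50 CPM in Dnmt3a Flt3 GMP (1.64 ± 0.76, edgeR adjusted p = 0.176), apart in the libraries but not called. Stat2 had 170, 99.6, 87.8 and 83.2 CPM in Npm1 Flt3 GMP, against 104 and 73.6 CPM in Dnmt3a Flt3 GMP (0.28 ± 0.33, edgeR adjusted p = 0.635). The 6 sensors and 5 Oas genes gave no call.

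Of 67 other pathway genes 16 were higher and 3 lower in Npm1 Flt3 GMP, among them Jak2 (3.40), Ifngr1 (1.63), Ifngr2 (1.99), Irf8 (3.12), Irf5 (3.57), Samhd1 (2.36), Tlr3 (7.29), Myd88 (1.19), Mb21d1 (1.67), Trim24 (2.33), Irf2bp2 (1.35), Irf2bp1 (1.68), Ciita (6.86), Cxcl9 (4.995) and Cxcl10 (3.94), the genes with the smallest p of their lists. Ly6a (0.68 ± 0.50, edgeR adjusted p = 0.403) was not called. Conventional dendritic cell markers summed to 24181 to 49808 CPM in Npm1 Flt3 GMP, highest in replicate 1, against 225 and 236 CPM in Dnmt3a Flt3 GMP, with 7 of 8 called higher. Monocyte markers summed to 2465 to 4024 CPM, against 142 and 180 CPM, with 5 of 5 called higher. Their part in the changes was not tested. At an unadjusted p under 0.05 edgeR gave 16 higher and 3 lower, and DESeq2 called 12 higher and 3 lower. Leaving out Dnmt3a Flt3 GMP replicate 1 gave 5 calls and leaving out replicate 3 gave 4, with the lone library assumed to vary like those of Npm1 Flt3 GMP.

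Within Npm1 Flt3 mice, LSK set against GMP cells gave 7 of 39 genes higher in LSK (17.9%, against 2.35% of all 21227 genes tested) and 0 lower (against 2.27%; edgeR 13 higher and 0 lower at an unadjusted p under 0.05, DESeq2 12 and 0), with a median of 0.60 beside 0.12 over all genes. Rtp4 had 75.0, 57.8, 80.7 and 39.1 CPM in Npm1 Flt3 LSK, against 2.46, 1.98, 0.797 and 1.64 CPM in Npm1 Flt3 GMP (4.99 ± 0.49, edgeR adjusted p = 4.17e-05). Isg20 had 85.9, 48.8, 72.5 and 74.2 CPM in LSK, against 22.2, 14.4, 11.0 and 11.1 CPM in GMP (2.07 ± 0.29, edgeR adjusted p = 0.000724). Bst2 had 193, 137, 236 and 176 CPM in LSK, against 89.9, 57.5, 77.5 and 71.5 CPM in GMP (1.15 ± 0.22, edgeR adjusted p = 0.00826). None of these groups overlapped.
Ifi27l2a was higher by 2.05 ± 0.45 (edgeR adjusted p = 0.0183), Ddx58 by 1.56 ± 0.40 (edgeR adjusted p = 0.0383), Oasl2 by 2.12 ± 0.56 (edgeR adjusted p = 0.0454) and Oas1a by 1.02. Isg15 had 26.2, 16.1, 44.3 and 11.7 CPM in LSK, against 10.7, 3.55, 4.19 and 3.51 CPM in GMP, and missed the threshold (1.96 ± 0.54, edgeR adjusted p = 0.055). Irf7 (0.92 ± 0.45, edgeR adjusted p = 0.295), Ifit3 (0.82 ± 1.02, edgeR adjusted p = 0.727) and Stat2 (-0.78 ± 0.43, edgeR adjusted p = 0.361) were not called, and their ranges overlapped.
Rtp4, Oasl2 and Ddx58 were called higher in LSK in WT, in Flt3 4-week and in Npm1 Flt3 mice. With the animal as a block Ddx58 (edgeR adjusted p = 0.0681) and Oas1a were not called, and Stat2 was called lower in LSK (-1.56, edgeR adjusted p = 0.00993). Of 71 other pathway genes 4 were higher and 3 lower: Socs3 (3.17), Tgtp1 (2.93), Igtp (1.15) and Gbp4 (4.63), and Ifngr1 (-1.76), Ikbke (-1.03) and Gbp3 (-0.67). Ly6a was higher by 5.23 ± 0.26 (edgeR adjusted p = 1.12e-07). Markers of plasmacytoid dendritic cells were 279 to 453 CPM in LSK, against 4.69 to 12.7 CPM in GMP, with 5 of 6 called higher, and their part was not tested. Without LSK replicate 2 or 3, or GMP replicate 2 or 3, 4 genes were called each time.

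The last comparison asks how the genes change in Npm1 Flt3 progenitors when the Flt3 mutation is removed with TAM. After TAM 29 of 39 genes were higher (74.4%, against 10.1% of all 25269 genes tested) and 1 was lower (2.56%, against 21.3%). The median change of the genes was 1.94, beside 0.56 over all genes, so that they stood 1.38 above the genes as a whole. The scaling matters here: the median over all genes was 0.30 with median-ratio size factors and 1.64 with library totals alone, and the genes stood 1.22 and 1.52 above it. Of all genes called, 32.1% were higher with TMM scaling, 28.3% with median-ratio size factors and 81.5% with library totals alone, while 29, 22 and 37 of the 39 genes were called higher. Of the 39 genes 29 had a change above the median of all genes.

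Irf7 had 936, 392 and 902 CPM after TAM, against 9.09, 8.78 and 11.5 CPM after vehicle (4.99 ± 0.44, edgeR adjusted p = 1.89e-09). Rtp4 had 182, 50.4 and 252 CPM after TAM, against 0.764, 0.735 and 0.954 CPM after vehicle (6.35 ± 0.52, edgeR adjusted p = 1.89e-09). Usp18 had 261, 84.4 and 327 CPM after TAM, against 7.13, 2.99 and 6.80 CPM after vehicle (4.16 ± 0.44, edgeR adjusted p = 5.81e-08). The groups were far apart, and TAM replicate 2 was the lowest TAM library for 37 of the 39 genes.

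Ifit3 had 202, 60.1 and 297 CPM after TAM, against 1.05, 0.0580 and 0.465 CPM after vehicle (7.51 ± 0.89, edgeR adjusted p = 0.000115), and its partner Ifit1 had 144, 44.4 and 196 CPM, against 2.72, 0.667 and 2.74 CPM after vehicle (4.88 ± 0.50, edgeR adjusted p = 9.4e-08). Isg15 had 41.2, 8.26 and 38.2 CPM after TAM, against 0.477, 0.232 and 0.636 CPM after vehicle (4.85 ± 0.61, edgeR adjusted p = 7.11e-07). Zbp1 had 134, 52.7 and 149 CPM after TAM, against 5.77, 1.84 and 2.52 CPM after vehicle (3.94 ± 0.43, edgeR adjusted p = 8.11e-08). The lowest TAM library of each was several-fold above the highest vehicle library.

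Oas2 had 82.4, 44.8 and 129 CPM after TAM, against 3.94, 1.49 and 3.45 CPM after vehicle (3.73 ± 0.43, edgeR adjusted p = 1.64e-07). The 5 Oas genes and the 3 Ifit genes were all called higher, as were 5 of 6 sensors, 6 of 8 other antiviral effectors, 3 of 4 genes of the ISG15 system and 3 of 3 signalling genes. Their changes lay between 1.03 for Irf9 and 7.51 for Ifit3. Stat2 had 305, 178 and 313 CPM after TAM, against 54.2, 49.7 and 59.2 CPM after vehicle, and rose by 1.05 ± 0.36 (edgeR adjusted p = 0.0266), a call that was lost with median-ratio size factors and in DESeq2. Irf9, Herc6 and Parp14 were lost in both of these as well, and Dhx58, Mx1 and Mx2 with median-ratio size factors.

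Psmb8 was called lower (-1.37 ± 0.36, edgeR adjusted p = 0.00375) with 471, 419 and 466 CPM after TAM, against 542, 491 and 476 CPM after vehicle; with library totals alone the change was -0.15 and was not called. Of the genes not called, Eif2ak2 (PKR, which stops translation on double-stranded RNA), Ifi35, Lgals3bp, Ly6e, Parp9 and Trim25 had changes of -0.05 to -0.49 with TMM scaling, which turned to 0.75 to 1.18 with library totals alone. Without 1 library at a time 26 to 30 genes were called, and with the title number as a block 30.

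**Figure D5:**
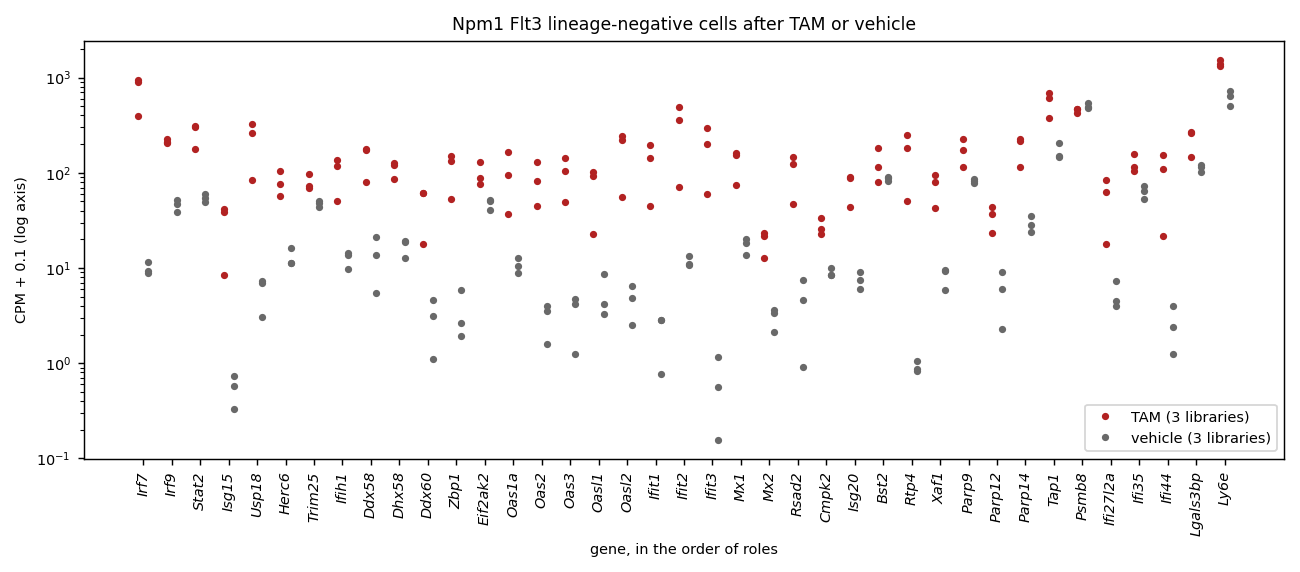
CPM + 0.1 on a log axis of the 39 measured genes, 1 point per library, in the 3 TAM (red) and the 3 vehicle (grey) libraries of Npm1 Flt3 Lin- HSPCs, without TMM scaling. Irf7 and Rtp4 lie far apart between the groups, while the Psmb8 libraries, at 419 to 471 CPM after TAM and 476 to 542 CPM after vehicle, lie close together.

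Of 71 other pathway genes 20 were higher after TAM and 15 lower. Ifng, which encodes interferon-gamma, was the ligand called, with 20.7, 3.22 and 10.2 CPM after TAM, against 0.119, 0.580 and 0.343 CPM after vehicle (3.51, edgeR adjusted p = 0.000535). Ly6a had 478, 111 and 497 CPM after TAM, against 16.1, 7.72 and 7.39 CPM after vehicle (3.93 ± 0.46, edgeR adjusted p = 4.15e-07). The interferon-gamma type GTPases and chemokines gave 12 higher and 2 lower of 16, led by Iigp1 (6.41), Gbp4 (4.17) and Gbp6 (5.45). Nfkb1 (-2.50), Ifnar2 (-1.82), Tbk1 (-1.21), Ptpn2 (-1.55), Irf2bp2 (-1.46), Psme2 (-1.50), Psme1 (-1.38) and Psmb10 (-1.15) were lower, and Irf1 (1.45), Tlr3 (3.22), Tlr7 (2.70), Socs3 (2.34) and Nlrc5 (1.05) higher.

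The cells differed in other ways too. GMP markers summed to 637 to 974 CPM after TAM, against 5205 to 6335 CPM after vehicle. Higher after TAM were the summed markers of conventional dendritic cells (27709 to 35621 CPM, against 2592 to 5144 CPM after vehicle), plasmacytoid dendritic cells (214 to 806 CPM, against 8.69 to 78.5 CPM), iron-recycling macrophages (614 to 1112 CPM, against 35.9 to 54.5 CPM), late neutrophils (1639 to 2154 CPM, against 45.6 to 89.0 CPM) and erythroid cells (469 to 658 CPM, against 0.938 to 6.56 CPM). The T and NK cell list summed to 495 to 839 CPM after TAM, against 199 to 308 CPM after vehicle, with 2 of 5 called higher. It also summed to 309 to 818 CPM in sorted Npm1 Flt3 GMP and to 1013 and 1136 CPM in Dnmt3a Flt3 GMP. Whether T or NK cells were present was not tested. Plasma cell markers (235 to 879 CPM, against 107 to 207 CPM) and basophil and mast cell markers (65.1 to 198 CPM, against 28.2 to 62.2 CPM) were also apart, with 1 of each list called higher and 1 lower. TAM replicate 2, low in the interferon-stimulated genes, was also the lowest in plasmacytoid dendritic cell markers (214 CPM) and the highest in macrophage (1112 CPM) and conventional dendritic cell markers (35621 CPM). The part of these cells in the changes was not tested.

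Over the 10 comparisons between groups, the genes differed in how often they were called higher. Ifi27l2a was called in 7, and Irf7, Mx1, Bst2, Rtp4, Parp12 and Ifi44 in 5 each. Irf9, Stat2, Ddx58, Oasl1, Oasl2, Ifit3 and Ifi35 were called in 4 each, Usp18, Trim25, Oas1a, Oas3, Rsad2 and Tap1 in 3 each, and Isg15, Ddx60, Zbp1, Oas2, Ifit1, Mx2, Isg20, Xaf1, Parp14 and Ly6e in 2 each. Herc6, Ifih1, Dhx58, Ifit2, Cmpk2, Parp9, Psmb8 and Lgals3bp were called in 1 each and Eif2ak2 in 0. Calls in the lower direction were 1 each for Isg20, Psmb8 and Ly6e. Several comparisons share libraries (the WT GMP, WT LSK, Flt3 and Npm1 Flt3 groups each enter more than 1), so these counts are a description.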

How the data were processed

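RNA of sorted LSK and GMP cells and of Lin- HSPCs was sequenced, by single-end or paired-end library kits whose use by sample the labels do not give. The deposited values are whole-number counts per gene symbol in 2 tables; per the submitters' processing notes the authors aligned reads with STAR and counted them with featureCounts on mm10, with versions, annotation and strand setting not given in the sources used here. Overlapping and antisense genes therefore cannot be told apart.

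Each table was fitted alone. LSK minus GMP comparisons used all sorted libraries of their table (29 WT and Flt3 libraries, or 12 of Npm1 Flt3 and Dnmt3a Flt3 mice), genotype comparisons those of 1 cell type (14 or 15, and 6), and TAM minus vehicle its own 6. Slopes over weeks used the Flt3 libraries of 1 cell type. The test was edgeR's quasi-likelihood test (edgeR 4.0.16, R 4.3.3) after filterByExpr and TMM scaling, with Benjamini-Hochberg adjustment across the whole set of genes that passed the filter, and calls at 0.05. It was checked on simulated data. CPM is the count scaled to a library total of 1000000. A fold against 0 counts uses a floor of 3 counts over the group. Libraries under 10000 counts (1) and those with conflicting labels (2) were left out. In 54 pairs of replicates the counts differed by more than sampling noise (lowest chi-square per degree of freedom 2.35).

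LSK and GMP libraries with the same code number were taken as 1 animal and paired on the number alone. Their deviations from the group means correlated at -0.0552 to 0.209 over 14 WT and Flt3 pairs and 0.0813 to 0.226 over 3 Npm1 Flt3 pairs. Of these pairs, 4 of 14 and 2 of 3 were above 0.1. TAM and vehicle libraries with the same title number correlated at 0.111 to 0.304 over 3 pairs, above the limit of 0.1 set for pairing. Their code numbers differ, however, so the labels do not show that they are paired.

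The members, the lists of 77 other pathway genes and of cell markers, and the tests were chosen with earlier results of these data known. Irf7, Stat2, Isg15 and Ifit3 are named in every comparison, with up to 6 genes called at the smallest p per direction, or all where 5 or fewer were called, and Ly6a beside them. Of each pathway list, the genes called are named where 4 or fewer, else the 3 with the smallest p. One gene of these lists entered the fits and counts but is not reported here by name. Alternatives were DESeq2 1.42.0, median-ratio size factors, no filter on low counts, replicate blocks, the left-out libraries put back, the 2-week or 8-week libraries left out, and each library left out in turn (90 fits). For TAM, library totals alone were added after seeing the data.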

Additional observations from a re-analysis of the deposited data

Results flagged for a closer look

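In Npm1 Flt3 GMP, 1 of 4 libraries stood far from the other 3 for 5 genes, of 82 sets of values checked; chance sets about 1 in 20 apart. Replicate 1 had 263 CPM of Irf7, against 83.6 to 107 CPM in the others, and 10.7 CPM of Isg15, against 3.51 to 4.19 CPM. The same library had 93.7 CPM of Mx1, against 27.6 to 38.8 CPM in the others, and 32.3 CPM of Parp12, against 10.3 to 11.8 CPM. It was also the highest of its group in conventional dendritic cell markers, whose part was not tested. Replicate 4 had 66.8 CPM of Eif2ak2, against 34.3 to 38.6 CPM in the others.

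The Flt3 change of Stat2 at 4 weeks was called different between the cell types, lower in LSK than in GMP by a log2 difference of -1.80 (edgeR adjusted p = 0.0267). It was 1 of 39 genes (2.56%), a share near the 2.17% of all genes called lower. The call was lost in most of the fits that each left out 1 library.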

How the results depend on the processing

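Of the values for single genes under the alternatives, 1732 kept their direction and their side of the threshold, 217 lost the call and 193 gained it. Another 21 changed sign without a call in either fit, and 6 changed sign with a call in at least 1 of the fits. DESeq2 called 2 genes (against 1) in the difference of the Flt3 changes, 3 (against 1) in Flt3 LSK at 4 weeks, 8 (against 5) in the GMP slope, 2 (against 0) in the LSK slope, 15 (against 9) between Npm1 Flt3 and Dnmt3a Flt3 GMP and 12 (against 7) between Npm1 Flt3 LSK and GMP. With no filter on low counts the calls were 11 (against 7) between Flt3 LSK and GMP at 4 weeks, 11 (against 7) in Flt3 LSK over all times, 5 (against 1) in Flt3 LSK at 4 weeks, 9 (against 5) in the GMP slope and 1 (against 0) in the LSK slope. Without the 2-week libraries edgeR called 2 genes in Flt3 LSK over all times and 0 in the GMP slope, and without the 8-week libraries 9 in the GMP slope. With the libraries of conflicting labels put back, 18 genes were called between Npm1 Flt3 and Dnmt3a Flt3 GMP; by title, 2 of the 3 Dnmt3a Flt3 libraries of each cell type then carry 1 code number, so that the 3 are not shown to be separate animals. The causes were not tested.

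With the animal as a block, the WT LSK minus GMP median was 1.25 (against 1.46), 12 genes were called between Flt3 LSK and GMP at 4 weeks and 3 in the difference of the Flt3 changes. For TAM and vehicle, which share only a title number as well, the block on it left 30 calls. Other libraries share only a title number, with correlations of -0.202 to 0.155 over the WT and Flt3 pairs and -0.181 to 0.0193 over the Npm1 Flt3 and Dnmt3a Flt3 pairs; there the block gave 0 calls (against 1) in Flt3 LSK at 4 weeks and 25 (against 13) between Npm1 Flt3 and Dnmt3a Flt3 LSK.

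With library totals alone, the TAM median was 3.16 (against 1.94), and Eif2ak2 (1.04, against -0.17), Ifi35 (1.00, against -0.29), Lgals3bp (1.01, against -0.25), Ly6e (1.18, against -0.05), Parp9 (1.07, against -0.20) and Trim25 (0.75, against -0.49) changed sign. The 10 most abundant genes took 6.11% to 8.03% of counts after TAM, against 3.78% to 4.09% after vehicle.

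Leaving out 1 library at a time gave 14 to 26 calls for WT LSK minus GMP (median 1.04 to 1.51), 1 to 8 for Flt3 LSK minus GMP, 0 to 1 for the difference of the Flt3 changes, 8 to 12 for Flt3 GMP over all times, 4 to 8 at 4 weeks, 3 to 8 for Flt3 LSK over all times and 0 to 2 at 4 weeks. The GMP slope had 3 to 9 calls and the LSK slope 0 to 3, Npm1 Flt3 minus Dnmt3a Flt3 5 to 17 in LSK and 4 to 13 in GMP, Npm1 Flt3 LSK minus GMP 4 to 7, and TAM minus vehicle 26 to 30.

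Over all genes, the GMP slope called 1147, against 8 without the 2-week libraries and 1824 with no filter. The LSK slope called 258, against 442 in DESeq2, 653 with no filter, 120 with the block, 1 without the 2-week and 673 without the 8-week libraries. Npm1 Flt3 minus Dnmt3a Flt3 called 2251 in LSK, against 4634 in DESeq2, 3465 with the block and 3597 with the conflicting libraries. In GMP it called 3571, against 2127 with the block and 5403 with the conflicting libraries. Npm1 Flt3 LSK minus GMP called 980, against 2188 in DESeq2.

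Depth limits the WT and Flt3 table: Ifit3, Isg15, Mx1, Oas3 and Rsad2 rest on few counts in GMP, where an absence of a call does not show an equal level.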

Other observations

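The interferon genes themselves had few counts in the WT and Flt3 libraries. None of the 10 ligand genes listed passed the filter in the WT and Flt3 comparisons. Ifnb1, the interferon-beta gene, had 0 counts in each library of that table, and Ifng had counts in Flt3 LSK at 2 weeks alone, with 2.42, 0.723 and 6.40 CPM.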
